A study of Arabidopsis thaliana with 34 samples.

Results

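The 10 genes taken as the core of the Arabidopsis circadian clock, CCA1, LHY, PRR9, PRR7, PRR5, GI, TOC1, ELF3, ELF4 and LUX, were followed through every mRNA library of the study. They were picked by gene identifier and not by any measured value. All 10 were listed among the 18480 genes of the seedling table and among the 21884 genes of the rosette table. All 10 had a mean high enough to enter the seedling tests, and 8 of the 10 passed the count filter of the rosette test. Dawn and evening genes were kept apart, so that their balance could be read as a check of the time of day at which libraries were taken. The sample labels hold no times of harvest. Names of the VRN2-YFP peaks all begin with Zt4, a prefix that is not defined, and the mRNA libraries carry no such prefix.

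The plant clock is a loop of transcription factors that repress each other in turn over the day. CCA1 and LHY, related MYB-like factors that peak at dawn, repress the evening genes. The pseudo-response regulators PRR9, PRR7 and PRR5 then appear in sequence from morning to afternoon and, with their evening relative TOC1, repress CCA1 and LHY. At dusk ELF3, ELF4 and LUX form the evening complex, a repressor of daytime clock genes and of growth genes such as PIF4, while GI acts with the blue-light receptor ZTL to control the stability of TOC1. The ratio of dawn to evening transcripts therefore changes many-fold within a day in any one plant.

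The study asked how VRN2, a subunit of Polycomb repressive complex 2 (PRC2, which places the repressive mark H3K27me3), bears on growth under light. Whole seedlings of wild-type Col-0, the mutants vrn2-5 and prt6-1, and the double mutant vrn2-5 prt6-1 gave 3 mRNA libraries each. Whole rosettes of pif4-2 and of vrn2-5 pif4-2 gave 2 libraries each. Both rosette groups were thus labelled as mutant for PIF4, a growth-promoting transcription factor, and no wild-type rosette was used. Chromatin of seedlings that carried VRN2-YFP from the VRN2 promoter in the vrn2-5 background was precipitated with an antibody to the tag, and H3K27me3 was compared between Col-0 and vrn2-5, each with 3 replicates. PRT6 encodes an E3 ligase through which VRN2 protein is degraded by the N-degron route. The labels do not state ages, light regimes or whether plants were pooled. Every rosette mRNA title also carries an F that the seedling mRNA titles lack and that the titles do not explain. Replicates are named only by number, so p-values measure the spread between these libraries, which may in part be technical.

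Seedling libraries held 1208836 to 27853214 reads and rosette libraries 15912781 to 26322823. VRN2 transcript measured 116 to 163 normalized reads in the 6 seedling libraries with the wild-type gene and 36.7 to 76.8 in the 6 labelled vrn2-5. In rosettes it counted 417 and 449 reads in pif4-2 and 111 and 148 in vrn2-5 pif4-2. PIF4 reads were present in rosettes, 1440 and 1280 in pif4-2 and 960 and 539 in vrn2-5 pif4-2. Loss of PIF4 function there rests on the label. PRT6 reads were not lower in the libraries labelled prt6-1 (49.6 to 142 normalized reads) than in the other 6 (0 to 57.7), and a count over the whole gene does not show whether the allele is disrupted; every direction given for prt6-1 rests on that label. Leaf markers were high in all seedling libraries, with summed levels of 229612 to 509390.0 normalized reads for 6 genes, and all 7 root markers were listed there; several leaf markers belong to families of near-identical copies, whose reads the authors' counting could split. In rosettes 4 of the 7 root markers were listed, at 83.0 to 170.1 CPM in sum against 50516 to 85452 for the leaf markers. The 4 seedling libraries labelled replicate 3 stood apart from the other 8: 19.2% of the 16820 genes tested differed between them, against 0% between replicates 2 and 1. Depth differed between the sets: of the replicate 3 libraries 3 of 4 held at least 9232780 reads and the other 1784929, while of the other 8 libraries 3 held at least 23017643 and 5 at most 1786079. With depth as a term 9 of the 10 core clock genes were again called in that comparison.

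Both dawn genes were lowest in replicate 3 within every genotype. CCA1 (AT2G46830, chromosome 2, 19245591 to 19248915, plus strand) measured, in replicates 1, 2 and 3, normalized reads of 364, 202 and 84.0 for Col-0, 207, 189.9 and 93.9 for vrn2-5, 313, 435 and 144 for prt6-1 and 543, 183 and 136 for vrn2-5 prt6-1. All 4 replicate 3 libraries lay below all 8 others. LHY (AT1G01060, chromosome 1, 33365 to 37871, minus strand) measured normalized reads of 315, 177 and 97.3 for Col-0, 385, 445 and 83.8 for vrn2-5, 637, 429 and 198 for prt6-1 and 681, 316 and 148 for vrn2-5 prt6-1 in the same order. Its replicate 3 value was the lowest of each genotype, but the ranges over genotypes touched, because prt6-1 replicate 3 stood above Col-0 replicate 2. In Col-0 replicate 1 both genes were also well above replicate 2, so the dawn genes varied within the pair of replicates 1 and 2 as well.

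The 3 daytime genes differed among themselves. PRR9 (AT2G46790, chromosome 2, 19232607 to 19235179, plus strand), the earliest of the series, measured normalized reads of 33.7, 49.6 and 56.3 for Col-0, 23.7, 45 and 0 for vrn2-5, 41.9, 22.2 and 52.4 for prt6-1 and 17.7, 27.5 and 49.2 for vrn2-5 prt6-1. It was a low transcript throughout with no order of replicates common to the genotypes, and no read of it was counted in vrn2-5 replicate 3, where 3 reads would amount to 10.1 normalized reads. PRR7 (AT5G02810, chromosome 5, 637681 to 642030, minus strand), which follows PRR9, measured normalized reads of 859, 659 and 1211 for Col-0, 729, 615 and 1528 for vrn2-5, 873, 534 and 729 for prt6-1 and 441, 633 and 852 for vrn2-5 prt6-1. Replicate 3 was highest in Col-0, vrn2-5 and vrn2-5 prt6-1, but not in prt6-1, and the ranges overlapped. PRR5 (AT5G24470, chromosome 5, 8356204 to 8358546, minus strand), the afternoon member, measured normalized reads of 75.0, 138 and 981 for Col-0, 105, 84.9 and 771 for vrn2-5, 103, 102 and 648 for prt6-1 and 90.4, 82.5 and 585 for vrn2-5 prt6-1. Every replicate 3 library was at least 4 times as high as any of the other 8, which all lay between 75.0 and 138.

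All 5 evening genes were higher in each replicate 3 library than in any library of replicates 1 and 2. GI (AT1G22770, chromosome 1, 8061751 to 8067790, plus strand) measured normalized reads of 172, 237 and 573 for Col-0, 152, 199.9 and 617 for vrn2-5, 164, 181 and 342 for prt6-1 and 111, 110.0 and 312 for vrn2-5 prt6-1. TOC1 (AT5G61380, chromosome 5, 24674963 to 24678550, plus strand) measured normalized reads of 169, 216 and 961 for Col-0, 178, 229.9 and 885 for vrn2-5, 217, 193 and 465 for prt6-1 and 196, 193 and 472 for vrn2-5 prt6-1. The 8 replicate 1 and 2 libraries held TOC1 within a narrow band, and in replicate 3 the libraries without prt6-1 reached higher levels than those labelled prt6-1.

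The 3 genes of the evening complex shared this order, higher in replicate 3 of every genotype. ELF3 (AT2G25930, chromosome 2, 11058944 to 11063324, plus strand), its scaffold, measured normalized reads of 199, 195 and 415 for Col-0, 181, 209.9 and 385 for vrn2-5, 198, 173 and 317 for prt6-1 and 179, 202 and 352 for vrn2-5 prt6-1, with the 8 libraries of replicates 1 and 2 within 173 to 209.9. LUX (AT3G46640, chromosome 3, 17183042 to 17186959, plus strand), the DNA-binding subunit, measured normalized reads of 139, 99.1 and 461 for Col-0, 100.4, 79.9 and 456 for vrn2-5, 118, 112 and 227 for prt6-1 and 86.0, 133 and 253 for vrn2-5 prt6-1. Again the replicate 3 libraries of Col-0 and vrn2-5 were above those labelled prt6-1. ELF4 (AT2G40080, chromosome 2, 16734294 to 16734953, minus strand), the small protein that binds ELF3, measured normalized reads of 3.75, 21.2 and 64.1 for Col-0, 12.5, 0 and 60.3 for vrn2-5, 15.3, 12.5 and 45.7 for prt6-1 and 26.1, 27.5 and 50.6 for vrn2-5 prt6-1. These values rest on 1 read in Col-0 replicate 1 and none in vrn2-5 replicate 2, where 3 reads would be worth 11.2 and 15.0 normalized reads, on 4 to 6 reads in Col-0 replicate 2, prt6-1 replicate 1 and vrn2-5 prt6-1 replicate 2, and on 18 to 222 reads in replicate 3.

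**Figure D1:**
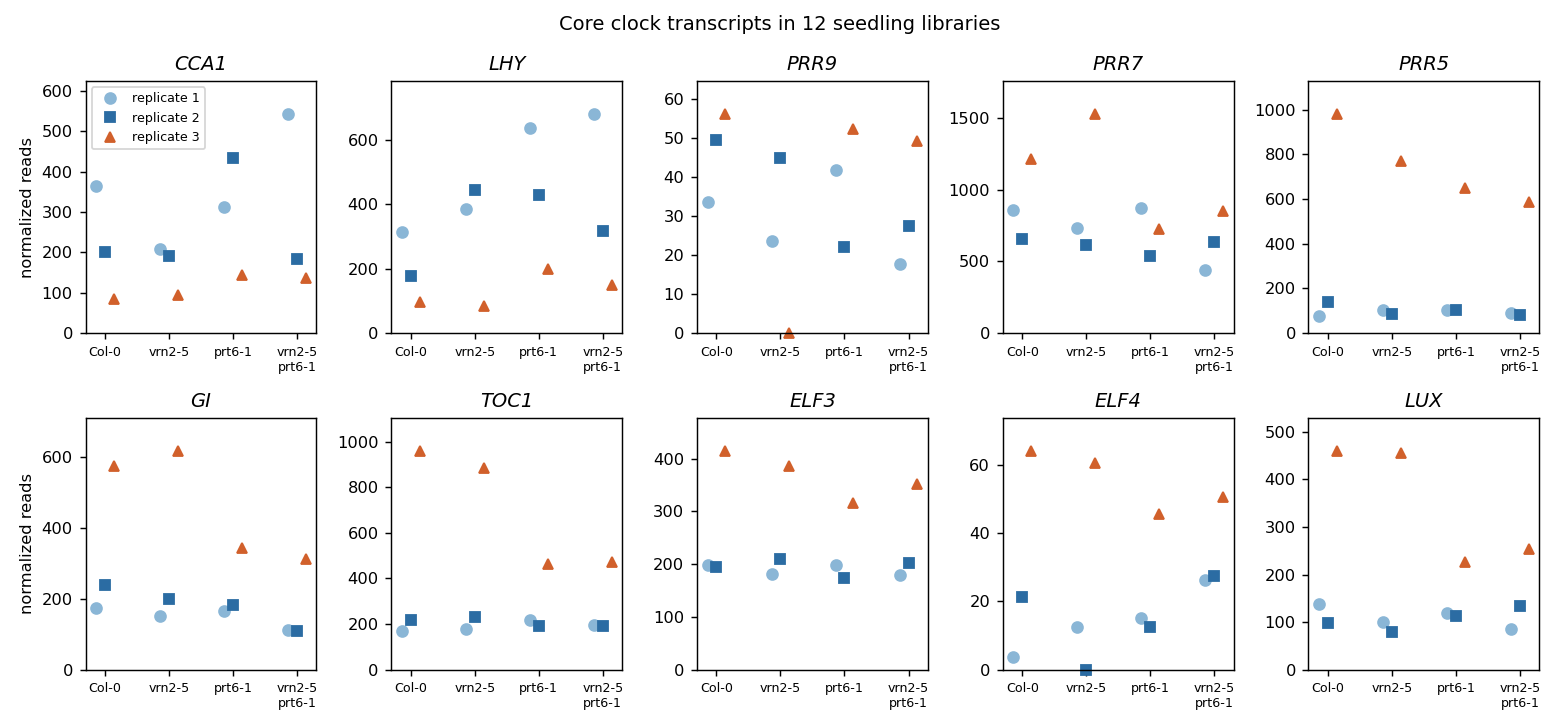
Normalized reads (vertical axis from 0, own scale per gene) of the 10 core clock genes in the 12 seedling libraries, by genotype; each point is 1 library, with circles, squares and triangles for replicates 1, 2 and 3. Triangles lie lowest for CCA1 and LHY and highest for PRR5, GI, TOC1, ELF3, ELF4 and LUX in every genotype; PRR9 is at 0 in vrn2-5 replicate 3.

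Tested over all genes with genotype as a term, replicate 3 differed from replicates 1 and 2 for 9 of the 10 genes, 7 higher and 2 lower, where 19.2% of all genes tested passed (8.8% higher and 10.4% lower). Earlier results of these data had already shown replicate 3 to stand apart. The p-values therefore describe a split taken from these libraries and not one set in advance. In 7 of the 10 the 4 replicate 3 libraries did not overlap the other 8, which held for 14.3% of all genes. PRR5 rose the most, by 2.87 log2 units or 7.29-fold (SE 0.164, limma adjusted p = 1.67e-05). TOC1 rose by 1.71 (SE 0.188, limma adjusted p = 0.00033) and GI by 1.43 (SE 0.131, limma adjusted p = 0.00013). Of the evening complex, LUX rose by 1.59 (SE 0.225, limma adjusted p = 0.0012), ELF3 by 0.91 (SE 0.0908, limma adjusted p = 0.000195) and ELF4 by 1.81 (SE 0.464, limma adjusted p = 0.024). PRR7 rose by 0.66 (SE 0.188, limma adjusted p = 0.0362). LHY fell by 1.62 log2 units (SE 0.197, limma adjusted p = 0.00054) and CCA1 fell by 1.30 (SE 0.237, limma adjusted p = 0.00453). PRR9 gave a difference of -0.21 (SE 0.572, limma adjusted p = 0.845). Its sign came from vrn2-5, where replicate 3 held no read of PRR9 (-2.92). In Col-0, prt6-1 and vrn2-5 prt6-1 PRR9 was higher in replicate 3, by 0.41, 0.68 and 1.00. All differences are on the scale of log2(normalized reads + 5), which understates changes of low genes such as ELF4.

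The calls of PRR5, GI, TOC1, LUX, ELF3, LHY and CCA1 held with each of the 12 libraries left out in turn and under every other setting tried. The limma call of ELF4 was lost without Col-0 replicate 3 (adjusted p = 0.102), without vrn2-5 replicate 3 (adjusted p = 0.11) and without prt6-1 replicate 3 (adjusted p = 0.0589), and also with a pseudocount of 1 (adjusted p = 0.0717). PRR7 was the weakest call: it held when prt6-1 replicate 1, prt6-1 replicate 3 or vrn2-5 prt6-1 replicate 2 was left out, and was lost without any of the other 9 libraries, with limma adjusted p of 0.0511 to 0.152.

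**Figure D2:**
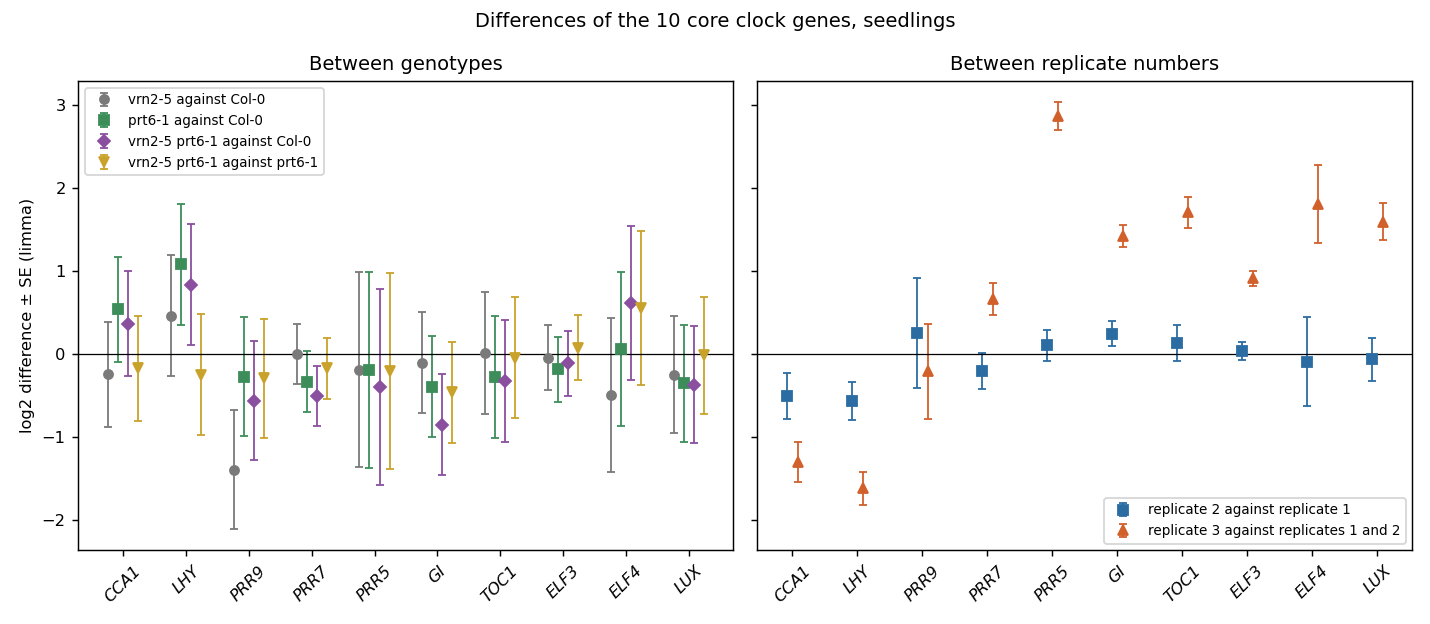
Differences in log2(normalized reads + 5) with standard errors (limma, 12 seedling libraries) for the 10 genes, between genotypes on the left and between replicate numbers on the right. Triangles on the right, replicate 3 against replicates 1 and 2, reach 2.87 for PRR5 and -1.62 for LHY, while the genotype differences on the left carry standard errors of 0.366 to 1.18.

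For 8 of the 10 genes most of the variance lay between replicate numbers. Of the sum of squares of log2 levels over the 12 libraries, 96.6% lay between replicate numbers for PRR5, 94.0% for ELF3, 88.0% for TOC1, 83.3% for LUX, 77.4% for GI, 72.8% for LHY and 67.7% for CCA1. The share was 58.3% for ELF4, 47.7% for PRR7 and 2.24% for PRR9, against a median of 25.2% over all genes tested. Between genotypes the shares of the 10 ran from 1.05% for PRR5 to 29.9% for PRR9, with a median of 22.4% over all genes.

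Among clock genes outside the core, those of evening phase were higher in replicate 3 and several of morning phase lower. Over all genes tested 8.8% rose and 10.4% fell. Of 9 other evening-phased genes, all tested, 8 rose in replicate 3 and none fell, with a median difference of 2.12 log2 units against 0.05 over all genes. They were COR27 (4.04) and COR28 (3.81), repressors of PRR5 and TOC1 that are also induced by cold, the RNA-binding proteins GRP7 (3.61) and GRP8 (1.28), the LUX relative BOA (2.12), PRR3 (2.14), the F-box photoreceptor FKF1 (2.08) and the catalase CAT3 (0.81). GRP7, a clock output, stood at 896 to 1759 normalized reads in the 8 libraries of replicates 1 and 2 and at 11034 to 18110 in replicate 3. JMJ30 differed by 0.33 (SE 0.589, limma adjusted p = 0.75).

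Of 15 other morning-phased genes 14 were tested, of which 6 fell and 2 rose, with a median of -0.41. Those that fell were the MYB-like factors RVE8 (-1.66) and RVE1 (-0.94) and the coactivators LNK1 (-1.21) and LNK2 (-1.11). The flowering repressor CDF1 (-0.96) and the catalase CAT2 (-1.27) also fell. RVE7 (0.98) and RVE2 (0.86), of the same morning-phased list, rose. Among the other clock regulators, a list not chosen by rhythm, 2 of 14 tested rose, the splicing factor SKIP (0.52) and LWD1 (0.38). None fell, and the median of the 14 was 0.28. Over all genes tested 8.8% rose and 10.4% fell. Calls were lost without Col-0 replicate 3 for RVE1, RVE2, RVE7, CDF1, BOA, CAT3, PRR3 and LWD1, where limma adjusted p ran from 0.0561 to 0.146. Without vrn2-5 replicate 3 they were lost for RVE7, CDF1, BOA, CAT3 and PRR3 (limma adjusted p 0.0501 to 0.124), and without prt6-1 replicate 3 for RVE2, RVE7, CDF1 and LWD1 (0.0699 to 0.124). Without vrn2-5 prt6-1 replicate 3, RVE7, PRR3 and LWD1 were not called (0.0605 to 0.0984). With depth as a term CDF1 (limma adjusted p = 0.0507) and LWD1 (0.0579) missed the threshold, as did PRR3 with a pseudocount of 1 (0.0766). PRR3 also missed the threshold without vrn2-5 replicate 1, vrn2-5 replicate 2 or vrn2-5 prt6-1 replicate 1 (0.0551 to 0.0633), and LWD1 without Col-0 replicate 1 or vrn2-5 prt6-1 replicate 2 (0.0514 and 0.0541).

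**Figure D3:**
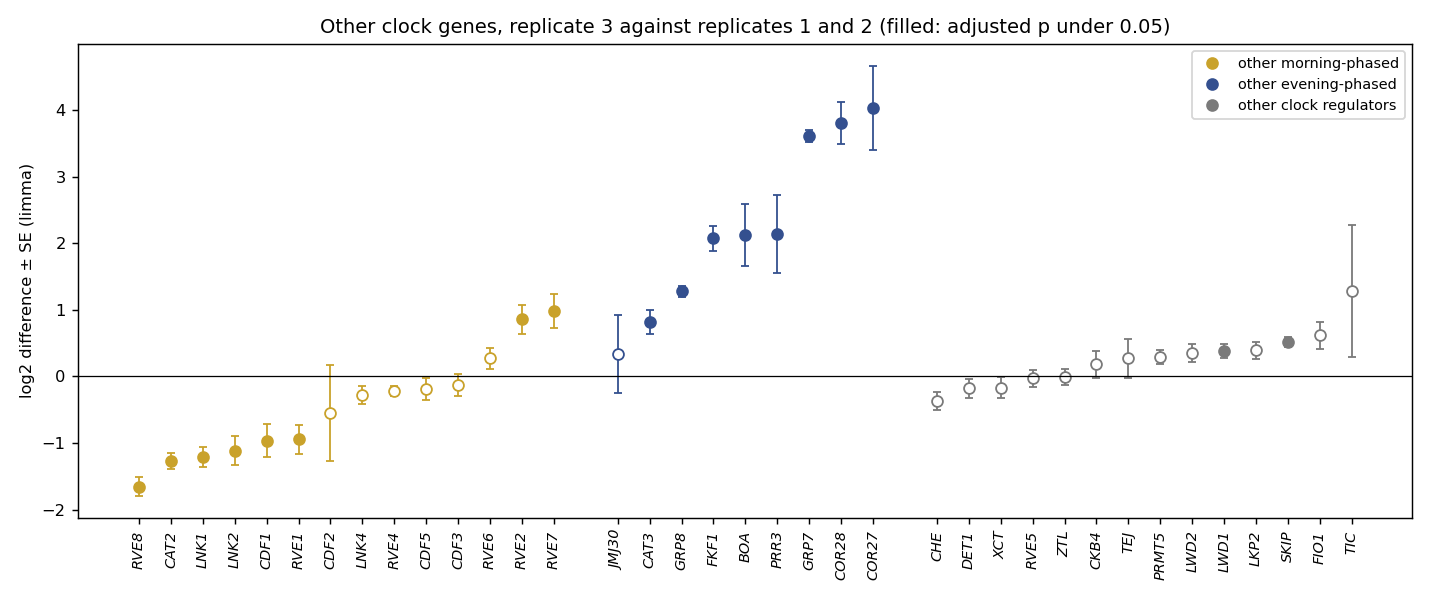
Differences in log2(normalized reads + 5) with standard errors (limma) between replicate 3 and replicates 1 and 2 for 37 other clock genes in 3 lists, filled where the adjusted p was under 0.05. Of the evening-phased genes 8 are filled above 0, up to 4.04 for COR27; of the morning-phased genes 6 are filled below 0 and 2 above; 2 regulators are filled.

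Genes outside the clock moved with replicate 3 too, where 8.8% of all genes tested rose and 10.4% fell. Of 13 cold-response genes 11 were tested and 8 rose, with a median of 1.46, and the summed level of the 13 was 2150.4 to 2922 normalized reads in replicates 1 and 2 and 6506 to 12298 in replicate 3. Of 12 flavonoid pathway genes 5 were tested and all 5 fell, with a median of -2.01, and the sum over the 11 in the table was 1049 to 1537 in replicates 1 and 2 and 315 to 414 in replicate 3, with LDOX and PAP1 at 0 in all 4 replicate 3 libraries. Of 6 leaf markers 3 fell, while their sum overlapped (276634 to 358091 in replicate 3). Of 4 root markers tested, PYK10 alone was called, lower, and 1 had a positive difference. The sum over 7 was 11189 to 14940.1 against 15202 to 26476. PYK10 made up nearly all of it, at 10871 to 14773 in replicate 3, so the sum does not speak for the other root markers. In whole seedlings fewer cells of a type and less RNA per cell cannot be told apart. The part of time of day, temperature, light, tissue make-up or handling in the replicate 3 difference was not tested, and with harvest times not given they cannot be told apart.

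The size of the replicate 3 difference was next set side by side within each genotype, as 1 library against the mean of the other 2. TOC1 differed by 2.30 log2 units in Col-0 and 2.1 in vrn2-5, and by 1.16 and 1.26 in the libraries labelled prt6-1 and vrn2-5 prt6-1. LUX differed by 1.93 and 2.28 against 0.95 and 1.21. For both genes the libraries without prt6-1 moved further. PRR5 showed 3.20 and 2.97 against 2.60 and 2.69, and ELF3 1.06 and 0.97 against 0.76 and 0.87. GI, at 1.48 and 1.79 against 0.97 and 1.46, came closest to overlapping, and ELF4 showed 2.19 and 2.80 against 1.43 and 0.80. In all 5 evening genes and PRR5 the values without prt6-1 were thus the larger, by very little in GI. The dawn genes overlapped, with CCA1 between -1.63 (Col-0) and -1.04 (vrn2-5) and LHY between -2.24 (vrn2-5) and -1.24 (Col-0).

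The difference between differences was tested with a term for replicate 3 in the libraries labelled prt6-1, a comparison added after the levels had been seen. No gene passed in limma (0% of genes, 938 of 16820 at an unadjusted p under 0.05, with 2 core clock genes among them), and none in edgeR, while DESeq2 called 233 genes. The smallest p among the 10 belonged to TOC1, with -0.99 log2 units (SE 0.202, limma adjusted p = 0.428), and LUX, with -1.03 (SE 0.3, limma adjusted p = 0.735). In DESeq2 both passed, TOC1 with an adjusted p of 1.19e-07 and LUX with 0.032, while edgeR gave adjusted p of 0.299 and 0.603, so that call depends on the tool. Over the alternatives tried the TOC1 value stayed between -1.09 and -0.89. Of the other clock genes COR28 (-1.69, SE 0.326) and COR27 (-3.53, SE 0.514) had the smallest p, both with a limma adjusted p of 0.39. COR27 stood at 421 and 399 normalized reads in replicate 3 of Col-0 and vrn2-5 and at 85.9 and 96.8 in those labelled prt6-1 and vrn2-5 prt6-1. All 6 leaf markers had a positive sign in the same term, with a median of 0.50; their part was not tested.

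**Figure D4:**
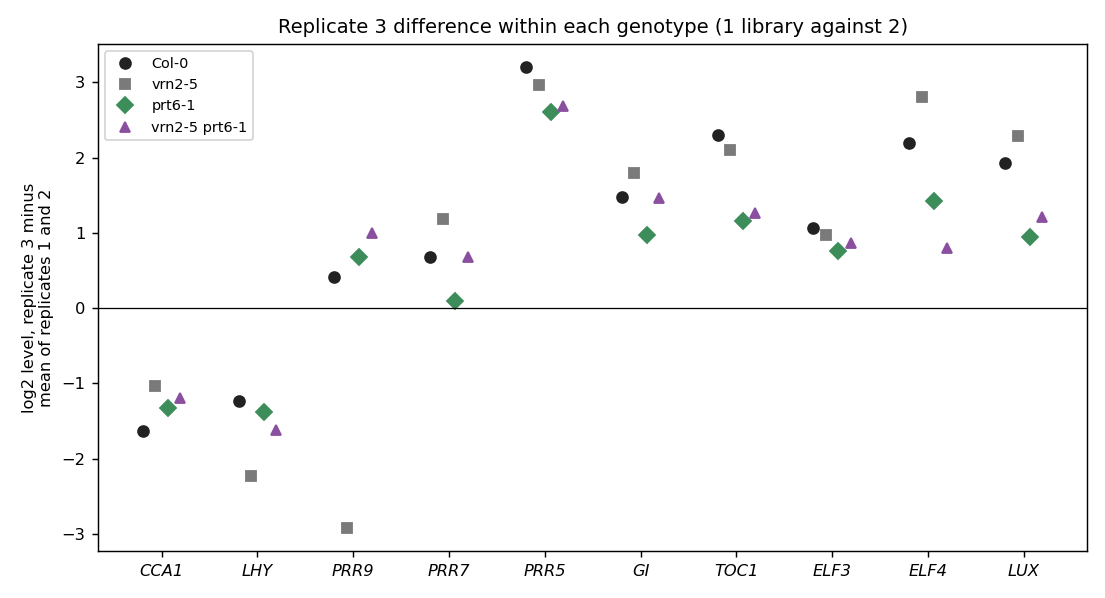
Log2 level of each core clock gene in replicate 3 minus the mean log2 level of replicates 1 and 2, for each genotype (1 library against 2, so no error bar can be drawn). For TOC1 and LUX the points of Col-0 and vrn2-5 (1.93 to 2.30) lie above those labelled prt6-1 (0.95 to 1.26); for PRR9 the vrn2-5 point rests on a count of 0.

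A dawn minus evening index, the mean log2 level of CCA1 and LHY minus that of GI, TOC1, ELF4 and LUX, put these genes on 1 scale per library. In replicates 1, 2 and 3 it was 2.12, 0.82 and -1.94 for Col-0, 1.75, 2.14 and -1.94 for vrn2-5, 2.20, 2.23 and -0.27 for prt6-1, and 2.77, 1.29 and -0.56 for vrn2-5 prt6-1. It was above 0 in all 8 libraries of replicates 1 and 2 and below 0 in all 4 of replicate 3. Replicate 3 minus the mean of replicates 1 and 2 was -3.41 in Col-0, -3.89 in vrn2-5, -2.48 in prt6-1 and -2.59 in vrn2-5 prt6-1. Per transcript length, CCA1 was 0.852 to 2.86 times the level of TOC1 in replicates 1 and 2, and 0.0902, 0.109, 0.319 and 0.297 times in replicate 3 of Col-0, vrn2-5, prt6-1 and vrn2-5 prt6-1. Within replicates 1 and 2, Col-0 replicate 2 and vrn2-5 prt6-1 replicate 2 had the lowest index. These are descriptions of the same values tested above and carry no test of their own.

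**Figure D5:**
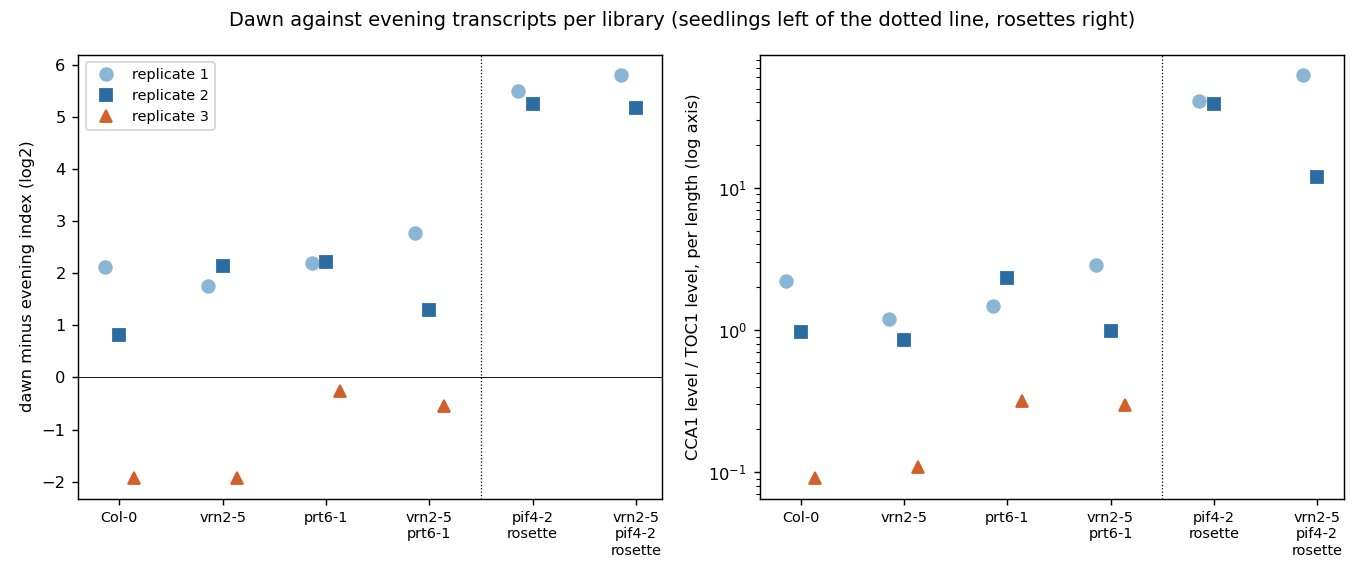
Dawn minus evening index (left, log2 units) and the ratio of CCA1 to TOC1 per transcript length (right, log axis) in each library; symbols mark replicates, and the dotted line parts seedlings from rosettes, whose table was scaled separately. The index used log2(normalized reads + 5) in seedlings and log2(CPM + 1) in rosettes, so the left panel does not compare the tissues on a common scale. Replicate 3 seedling libraries are the only ones below 0 on the left and the lowest on the right, down to 0.0902. Rosettes are highest on the right, up to 62.6.

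None of the 10 genes passed in any genotype comparison of seedlings, and in limma without a replicate term none had an unadjusted p under 0.05; edgeR and DESeq2 on the recovered reads called none of the 10 either. For vrn2-5 against Col-0, where 0.0238% of genes were called, the smallest p belonged to PRR9 with a log2 difference of -1.39 (SE 0.715, limma adjusted p = 1) and LHY with 0.46 (SE 0.729, limma adjusted p = 1); the PRR9 value includes the library with no read of it. For prt6-1 against Col-0 (0.184% called) they were LHY with 1.08 (SE 0.729, limma adjusted p = 1) and PRR7 with -0.33 (SE 0.366, limma adjusted p = 1). In the double mutant against Col-0 (0.208% called) they were GI with -0.85 (SE 0.607, limma adjusted p = 1) and PRR7 with -0.51 (SE 0.366, limma adjusted p = 1). These comparisons share the 3 Col-0 libraries. The other 8 genes of each comparison lay between -0.49 and 0.02, between -0.39 and 0.54, and between -0.56 and 0.83, in that order.

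Within the prt6-1 background, loss of VRN2 (vrn2-5 prt6-1 against prt6-1) gave 0% of genes called in limma, where 191 had an unadjusted p under 0.05, and neither edgeR nor DESeq2 called any. There GI showed -0.46 (SE 0.607, limma adjusted p = 1) and ELF4 0.55 (SE 0.927, limma adjusted p = 1). For vrn2-5 prt6-1 against vrn2-5 (0.208% called), PRR7 showed -0.51 (SE 0.366, limma adjusted p = 0.897) and GI -0.75 (SE 0.607, limma adjusted p = 0.907). The interaction of both mutations (0.00595% of genes called) had its smallest p in PRR9, 1.1 (SE 1.01, limma adjusted p = 1), and ELF4, 1.04 (SE 1.31, limma adjusted p = 1); with replicates 1 and 2 alone the PRR9 value was -0.11. Every group held its replicate 3 library, and in these fits, which leave the replicate 3 split in the residual, the standard error of a genotype difference ran from 0.366 for PRR7 to 1.18 for PRR5.

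With the replicate number as a block the standard errors were smaller, for example 0.218 for PRR5, 0.251 for TOC1, 0.174 for GI and 0.25 for PRR7. None of the 10 passed after adjustment over all genes, but GI and LHY had unadjusted p under 0.05 in several comparisons. In vrn2-5 prt6-1 against vrn2-5, GI differed by -0.75 (SE 0.174, unadjusted p = 0.00184, limma adjusted p = 0.189). In vrn2-5 prt6-1 GI also differed by -0.85 (SE 0.174, unadjusted p = 0.000765, limma adjusted p = 0.134) from Col-0 and by -0.46 (SE 0.174, unadjusted p = 0.0264, limma adjusted p = 1) from prt6-1. For prt6-1 against Col-0 LHY differed by 1.08 (SE 0.263, unadjusted p = 0.00243, limma adjusted p = 0.372) and GI by -0.39 (SE 0.174, unadjusted p = 0.0488, limma adjusted p = 0.691), and for vrn2-5 prt6-1 against Col-0 LHY differed by 0.83 (SE 0.263, unadjusted p = 0.0109, limma adjusted p = 0.37). GI was thus lowest in the double mutant, which held in each replicate number, and the comparisons share libraries. With replicates 1 and 2 alone, GI in vrn2-5 prt6-1 against Col-0 differed by -0.85 (SE 0.218, unadjusted p = 0.0053, limma adjusted p = 0.253) and LHY in prt6-1 against Col-0 by 1.13 (SE 0.401, unadjusted p = 0.0244, limma adjusted p = 0.692).

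The other clock genes, 37 tested in each comparison, were not called between genotypes either, where 0% to 0.208% of all genes were called. By the smallest p, CDF5, a relative of CDF1, differed by 0.53 (SE 0.247) in vrn2-5, 0.39 (SE 0.247) in prt6-1 and 0.68 (SE 0.247) in the double mutant, each against the same Col-0 libraries. CHE, a repressor of CCA1, differed by -0.37 (SE 0.233) in prt6-1, and RVE2 by 0.78 (SE 0.443) in the double mutant. TIC, a nuclear clock regulator, differed by -3.07 (SE 1.4) in vrn2-5 against Col-0 and by 3.23 (SE 1.4) in vrn2-5 prt6-1 against vrn2-5; it had 0 reads in vrn2-5 replicate 2. JMJ30 differed by -1.51 (SE 0.777) in the latter comparison, and RVE5 by -0.26 (SE 0.212) and CDF5 by 0.28 (SE 0.247) in vrn2-5 prt6-1 against prt6-1. In the interaction TIC gave 3.80 (SE 1.98) and LNK4 -0.54 (SE 0.312).

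Between replicates 2 and 1 none of the 10 genes was called. No gene at all was called in limma (0%, with 550 at an unadjusted p under 0.05) or in edgeR, and 3 were in DESeq2. LHY, with -0.57 (SE 0.228, limma adjusted p = 1), and CCA1, with -0.51 (SE 0.274, limma adjusted p = 1), had the smallest p of the 10, and LHY alone was under 0.05 unadjusted. LWD1 (0.38, SE 0.117) and RVE1 (-0.70, SE 0.252) had the smallest p of the other clock genes. Over those 8 libraries the genes did not all vary together: CCA1 and LHY had a Pearson r of 0.56, PRR9 went with ELF3 (0.77) and GI (0.72), and CCA1 ran opposite to ELF3 (-0.61). TOC1 and LUX, which were high together in replicate 3, had an r of -0.56 there. These values describe 8 libraries of 4 genotypes and unequal depth. PRR9 and ELF3 both parted by depth. Both were lowest in the deepest libraries, vrn2-5 replicate 1, prt6-1 replicate 2 and vrn2-5 prt6-1 replicate 1. PRR9 stood there at 17.7 to 23.7 normalized reads, against 27.5 to 49.6 in the shallower libraries, which held 6 to 14 reads of it. ELF3 stood at 173 to 181 against 195 to 209.9. The part of depth in these correlations was not tested.

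Divided by transcript length, the levels fell in a different order in each set of libraries. In replicates 1 and 2 (mean ± SD over 8 libraries, normalized reads per kb) PRR7 led at 207 ± 46.2, followed by LHY at 124 ± 49.2 and CCA1 at 112 ± 49.1, which overlapped. TOC1 (70.9 ± 7.39), ELF3 (69.9 ± 4.65) and PRR5 (58.2 ± 11.7) came next within each other's spread. GI (38.6 ± 9.98), LUX (27.7 ± 5.37), ELF4 (22.5 ± 15.0) and PRR9 (15.3 ± 5.49) were lowest, each neighbour within the spread of the next. In replicate 3 (4 libraries) PRR5 led at 445 ± 104, then PRR7 at 334 ± 112 and TOC1 at 248 ± 94.1, and the dawn genes CCA1 (42.0 ± 10.9) and LHY (38.5 ± 15.2) stood below every evening gene. ELF3 (134 ± 15.5), GI (107 ± 36.3), LUX (89.2 ± 32.3) and ELF4 (83.6 ± 12.9) lay between, and PRR9 was again last at 18.4 ± 12.4.

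In rosettes the dawn genes had the highest FPKM values of the 10 in all 4 libraries. CCA1 counted 6787 and 6052 reads in pif4-2 and 4851 and 4840 in vrn2-5 pif4-2, and LHY 5174 and 4503 reads in pif4-2 and 4018 and 3419 in vrn2-5 pif4-2, in replicates 1 and 2. PRR9 counted 773 and 977 reads in pif4-2 and 566 and 731 in vrn2-5 pif4-2, and PRR7 2409 and 2577 reads in pif4-2 and 1560 and 884 in vrn2-5 pif4-2. The afternoon and evening genes were low: GI counted 323 and 322 reads in pif4-2 and 221 and 137 in vrn2-5 pif4-2, TOC1 170 and 161 reads in pif4-2 and 80 and 415 in vrn2-5 pif4-2, ELF3 144 and 178 reads in pif4-2 and 204 and 100 in vrn2-5 pif4-2 and LUX 167 and 164 reads in pif4-2 and 78 and 74 in vrn2-5 pif4-2. PRR5 (4 and 2 reads in pif4-2 and 15 and 0 in vrn2-5 pif4-2) and ELF4 (1 and 6 reads in pif4-2 and 0 and 0 in vrn2-5 pif4-2) were close to none and were not tested. In the authors' FPKM values CCA1 stood at 108 and 90.4 in pif4-2 and 101 and 74.8 in vrn2-5 pif4-2, and TOC1 at 2.61 and 2.33 and 1.62 and 6.21. The ratio of CCA1 to TOC1 was 41.2, 38.8, 62.6 and 12 in these 4 libraries, above that of every seedling library; the tables were scaled separately and tissue, genotype and harvest differ together, so the gap was not tested. Of the libraries, vrn2-5 pif4-2 replicate 2 held the highest TOC1 and the lowest PRR7 and GI.

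None of the 8 genes tested passed between vrn2-5 pif4-2 and pif4-2, where edgeR called 0% of 18561 genes (441 at an unadjusted p under 0.05, none of them among the 8) and DESeq2 called 7 genes, none of the 10. LUX had the smallest p with a log2 difference of -0.89 (SE 0.43, edgeR adjusted p = 0.945), with fewer raw reads in both double mutant libraries than in either pif4-2 library. PRR7 followed with -0.74 (SE 0.47, edgeR adjusted p = 0.945). In the authors' deposited table the same comparison gave an adjusted p of 0.987 to 0.992 for all 10. The test turned on single libraries: without vrn2-5 pif4-2 replicate 1, edgeR called 10727 genes and 7 of the 8 clock genes, and without vrn2-5 pif4-2 replicate 2, it called 1397 genes and 1 of the 8. Without the former LUX gave -1.18 (edgeR adjusted p = 0.00191) and PRR7 -1.51 (edgeR adjusted p = 1.29e-08). The lone library is then assumed to vary like the pif4-2 pair. Of the other clock genes, 34 tested and none called, RVE1 (0.66, SE 0.305) and ZTL (-1.05, SE 0.517) had the smallest p.

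The deposited chromatin lists placed VRN2 at none of the 10 genes. No VRN2-YFP peak lay in a gene body or within 1 kb upstream in at least 2 of the 3 replicate lists, where 4.45% of 21713 genes had one, nor in any single list, where 15.6% had one. The nearest peak in any list was 1.56 kb from GI, 3.25 kb from LUX and 4.33 kb from LHY. From TOC1 it was 51.8 kb and from CCA1 16.4 kb. An H3K27me3 region in at least 2 of the 3 tables touched 1 of the 10, LHY, against 28.2% of genes. It lay upstream of the gene, from chromosome 1, 38801 to 44999 (TAIR10) in 2 of the tables and 38801 to 44599 in the other, starting 930 bases before the annotated start and covering none of the transcribed region. Its ratio of condition A over condition B was 0.923, 0.935 and 0.943. The false discovery rate that the authors gave for B over A was 0.00108, 0.0582 and 0.135, so it passed 0.05 in 1 replicate. The file headers do not define A and B, read here as vrn2-5 and Col-0 from the name of the comparison, and the direction rests on that reading. LUX was touched by a region in 1 table (ratio 0.883, false discovery rate 0.088).

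Among 8919 genes with a mean of at least 100 normalized reads, those most like CCA1 over the 12 seedling libraries, by Pearson r of log2 levels, were AXR3 (0.948), AT2G40270 (0.94), MYC4 (0.939), AAP5 (0.923) and KCS10 (0.921). AXR3 encodes an Aux/IAA repressor of auxin responses and MYC4 a bHLH factor of jasmonate responses. Within the 8 libraries of replicates 1 and 2 the r of these 5 genes with CCA1 was 0.828 to 0.929. Those most like TOC1 were COR28 (0.984), CYSB (0.983), AGT3 (0.981), CBSX3 (0.981) and NBR1 (0.98). Within replicates 1 and 2 their r with TOC1 was -0.0606 to 0.25, so their likeness to TOC1 rested on replicate 3. These values are descriptions over libraries that fall into separate sets and differ in depth.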

How the data were processed

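The submitters' processing notes name Bowtie and DESeq2 for mRNA, BWA with MACS2 and MACS3 for VRN2-YFP, BWA with SICER for H3K27me3, and TAIR10 for all, without versions; no source used here states whether counting used strand, so antisense reads cannot be told apart. The seedling values are a normalized signal, deposited by the authors as reads divided by 1 size factor per library; 100% of the values came out as whole reads (tolerance 0.01 of a read). The rosette table holds raw counts and FPKM deposited by the authors, with their log2 fold changes and p-values. The peak lists give a fold (ratio) over background and a −log10 q-value per the file headers, and the region tables give deposited ratios and p-values with false discovery rates. Peaks were called per replicate. VRN2-YFP peak names all begin with Zt4, a label the files do not define.

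Seedling comparisons used limma 3.58.1 (trend) on log2(value + 5) over 12 libraries for 16820 genes with a mean of at least 10. Rosette counts were tested with edgeR 4.0.16 (quasi-likelihood, TMM, filterByExpr) for 18561 genes. Adjusted p (Benjamini-Hochberg) covers all genes tested, with a threshold of 0.05. DESeq2 1.42.0 and edgeR were also run on the recovered reads. All ran in R 4.3.3, and other steps in Python 3.11.15 with pandas 2.3.3. The comparison of vrn2-5 with Col-0 was checked on simulated counts in limma, edgeR and DESeq2. So were the limma test of replicate 3, the limma prt6-1 term in it and the rosette edgeR test. The other fits were not checked in this way. Correlations of same-numbered deviations from the group means were 0.26, 0.179 and 0.288 for vrn2-5 with vrn2-5 prt6-1. They were positive in every number also for Col-0 with vrn2-5 (0.0209, 0.185 and 0.328) and Col-0 with vrn2-5 prt6-1 (0.00652, 0.219 and 0.508). Each pair with prt6-1 held a negative value, and in replicate 3 every pair was positive. Whether replicate numbers pair libraries is thus not settled. All 10 members are named with their levels, and with test values those past the threshold in each comparison or otherwise the 2 with the smallest p. The other clock genes follow the same rule (at most 8 of a list by smallest p), and the 5 genes most like CCA1 and TOC1 are named. The members, the lists and the split of replicate 3 from replicates 1 and 2 were chosen with earlier results of these data known. Low counts limit PRR9 and ELF4 in the shallowest libraries. RefSeq names (TAIR10.1) matched 18416 of 18480 genes, and no sequence is printed. Alternatives were another pseudocount, no filter on low values, a term for depth, a replicate block, replicates 1 and 2 alone, only the libraries compared, each library left out in turn, other scaling, wider gene groups for the index, and other windows and thresholds for peaks. Intervals are not given for single shares, and SD and SE cover these libraries only.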

Additional observations from a re-analysis of the deposited data

Results flagged for a closer look

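PRR9 had 0 normalized reads in vrn2-5 replicate 3, where the other 3 libraries labelled replicate 3 held 49.2 to 56.3, a gap that sets it apart from them on the log2 scale. A count of 3 reads there would be worth 10.1 normalized reads. Among 20 sets of libraries looked at for the 10 genes (replicate 3, and replicates 1 and 2 together, for each gene), chance would mark about 1 in 20, and this was the only one marked. The value enters the vrn2-5 comparisons and the interaction as given. Its source was not tested.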

How the results depend on the processing

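Of the 10 core genes, none was called between seedling genotypes under any alternative, and 8 to 9 (7 to 9 with 1 library left out) were called between replicate 3 and the rest. Over all genes the main fits called 0% to 0.208% between genotypes and 19.2% between replicate 3 and the rest. With genotype shares that low, the lack of a call among 10 genes is not particular to the clock. Other counts moved. DESeq2 called 11 genes for vrn2-5 against Col-0 (4 in limma), 55 for prt6-1 against Col-0 (31), 64 for vrn2-5 prt6-1 against vrn2-5 (35), 68 for vrn2-5 prt6-1 against Col-0 (35), 6 for the interaction (1; edgeR 0), 3 for replicate 2 against 1, 7 for rosettes, and 233 genes with 2 core genes for the prt6-1 term in the replicate 3 difference. With replicates 1 and 2 only, counts were 9 (vrn2-5), 64 (vrn2-5 prt6-1 against Col-0) and 0 (interaction), and the PRR9 interaction turned to -0.11; with only the libraries compared, vrn2-5 gave 1. The settings with fewer libraries have fewer degrees of freedom; for the others the cause was not tested. Leaving out 1 library gave 1 to 23 genes for vrn2-5 against Col-0 (1 and 23 without Col-0 replicates 1 and 3, 17 and 2 without vrn2-5 replicates 1 and 2), 21 to 51 for prt6-1 against Col-0 (51 without Col-0 replicate 3), 23 to 53 for vrn2-5 prt6-1 against Col-0 (23 without vrn2-5 prt6-1 replicate 1, 53 without Col-0 replicate 3), 25 to 48 for vrn2-5 prt6-1 against vrn2-5, and 0 to 5 for the interaction (0, 2 and 4 without Col-0 replicates 1, 2 and 3, 5 and 2 without vrn2-5 replicates 1 and 3). It gave 1985 (without Col-0 replicate 3) to 3167 for replicate 3, 0 to 9 (without prt6-1 replicate 2) for replicate 2 against 1, 0 to 26 for the prt6-1 term (26 without Col-0 replicate 3, 12 and 5 without vrn2-5 replicates 1 and 3) and 0 to 10727 for rosettes (0 to 7 core genes), where vrn2-5 pif4-2 replicates 1 and 2 decided. The mean index difference moved to -2.33 with wider gene groups. H3K27me3 touched 0 core genes with the gene body only and 2 with at least 1 table.

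The replicate block changed no call of a core gene after adjustment. For vrn2-5 prt6-1 against vrn2-5 it gave 38 genes in place of 35. Elsewhere it gave 4, 30, 0, 44 and 1 genes for vrn2-5 against Col-0, prt6-1 against Col-0, vrn2-5 prt6-1 against prt6-1, vrn2-5 prt6-1 against Col-0 and the interaction, and 3 for rosettes. The smallest limma adjusted p of a core gene under the block was 0.134, for GI in vrn2-5 prt6-1 against Col-0. Depth limits ELF4 and PRR9, whose levels in the shallowest libraries rest on a few reads.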

Other observations

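Of 37 other clock genes 1 had a VRN2-YFP peak in at least 2 of the 3 lists, against 4.45% of all genes, and 2 had an H3K27me3 region in at least 2 of the 3 tables, against 28.2% of all genes. COR27, an evening gene that was 4.04 log2 units higher in replicate 3, had a VRN2-YFP peak in its gene body in 2 of the 3 lists, with the authors' fold over background of 2.62 and 1.89 and −log10 q of 17.4 and 4.98. It also lay in an H3K27me3 region of 1 table, with a ratio of A over B of 0.74 and a false discovery rate for B over A of 3.83e-07. RVE6 and SKIP were touched by a region upstream of the gene in all 3 tables. The ratio at SKIP was 1.09, 1.09 and 1.1, with false discovery rates for A over B of 0.00107, 0.0119 and 0.0194, and at RVE6 it was 0.844, 1.01 and 0.953, with false discovery rates for B over A of 2.7e-17, 1 and 0.0196. These genes were named after their values were seen. No test links these marks to the transcript levels.

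TIC, a clock regulator outside the 10, had 0 normalized reads in vrn2-5 replicate 2 and 206 to 1164 in the other 11 seedling libraries.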
